A study of Mus musculus with 16 samples.

Results

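The chromatin regions described here are the ATAC-seq peaks of the axon guidance genes, the semaphorins, plexins, neuropilins, Slits, Robos, netrins and netrin receptors. A peak belonged to a gene if that gene had the protein-coding transcription start site nearest to the peak's midpoint, at most 100 kb away. Of 136630 nuclear peaks, 527 met this rule for a list of 45 genes. They lay at 43 of those genes, and Dcc and Unc5d had none. The farthest included midpoint was 99973 bp from its start site (Plxna1) and the nearest one left out was 100110 bp away (Nrp1). A promoter peak, within 1 kb of a start site, was present for 38 genes, and 303 of the 527 peaks had their midpoint in the body of a guidance gene.

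Accessibility was measured in mKate2-positive KC-shSmad4 cells, pancreatic ductal adenocarcinoma cells derived from mice with Ptf1a-Cre, a Cre-activated Rosa26 rtTA3-IRES-mKate2 allele and a doxycycline-inducible Smad4 hairpin at Col1a1. All 6 groups carried these alleles and a luciferase vector, and all grew in female athymic Foxn1nu mice 6 to 8 weeks old at transplant and fed Dox chow, so that Smad4 was off while tumours formed. Primary tumours came from 100000 cells injected into the pancreas, liver metastases from 400000 cells injected into the spleen before its removal, and lung metastases from 250000 cells injected into a tail vein. The Smad4-off groups (3 pancreatic tumours, 2 liver metastasis samples and 3 lung metastasis samples) stayed on Dox. The Smad4-on groups (again 3, 2 and 3 mice) were taken off Dox at 4, 5 and 6 weeks respectively and, by the labels, collected 14 days later, although all 6 lung columns of the deposited table name day 15. Each sample was a different mouse. Organ is tied to injection route, cell number and growth time, and these cannot be told apart. The hosts lack T cells, metastases were seeded by injection, and which hairpin or cell line each mouse received is not given in the sources used here.

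Guidance molecules steer growing axons and migrating cells. Semaphorins bind plexins, with neuropilins as co-receptors for the secreted class 3 proteins, Slits bind Robo receptors, and netrins bind Dcc, Neo1 and the Unc5 receptors. Most of these ligands repel, many act on blood vessels and epithelia as well as neurons, and the same receptors are used by tumour cells, fibroblasts and endothelium.

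Nuclear reads in peaks numbered 22.5 M to 37.5 M per sample, with a median of 36 to 76 reads per peak. Promoter peaks of all 7 ductal epithelial markers were open in every sample, with a summed level of 17276 to 53081 normalised reads that was highest in the liver groups. Of 6 fibroblast markers, 5 had a promoter peak, and their summed level was 594 to 1521 in the pancreatic groups, 105 to 261 in the liver groups and 171 to 512 in the lung groups. Of 8 endothelial markers, 6 had one, summing to 1189 in Smad4-off lung mouse 1, where the Cdh5 peak alone held 697, and to 425 to 655 in the other 15 samples. Fibroblast values are set beside Sema3a, Sema7a, Sema5a, Slit2, Slit3 and Ntn1. The other marker lists had a start-site peak for 2 of 6 leukocyte, 1 of 6 hepatocyte, 3 of 6 alveolar, 3 of 6 acinar and 3 of 6 Schwann cell and neuron genes. The leukocyte sum ranged from 179 to 509. The hepatocyte peak, of Ttr, had 164 to 242 in the liver groups and 20.4 to 96.7 in the others. Acinar sums were 566 to 800 in the liver groups and 170 to 393 in the others, and alveolar sums 314.5 to 450 and 106.5 to 229. The part of these cell types in the organ differences was not tested.

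With Smad4 off, guidance loci differed widely between liver and lung metastases and in both directions. Liver metastases had higher accessibility at 103 of the 527 peaks (19.5%) and lower accessibility at 144 (27.3%), at 29 and 28 genes. Over all nuclear peaks the shares called were 22.9% higher and 26.8% lower, so that as a whole the guidance peaks were close to the background. A peak was called if its log2 fold change was at least 0.58 in size and its adjusted p (limma, Benjamini-Hochberg over all nuclear peaks) at most 0.1. Without Smad4-off lung mouse 1, 86 were higher and 110 lower. Counts with a sample left out are given without the share of all peaks. They do not show whether guidance peaks changed more than others. The gene families did not share this balance. Neuropilin peaks were lower at 33 of 62 and higher at 5, with a median log2 difference (liver minus lungs) of -1.03, and Slit and Robo peaks were lower at 20 of 53 and higher at 4, with a median of -0.53. Netrin and netrin receptor peaks were higher at 19 of 69 and lower at 9. The other families were divided: plexins 17 higher and 22 lower of 87, class 3 semaphorins 20 and 20 of 94, and semaphorins of classes 4 to 7 38 and 40 of 162. The median over the 527 guidance peaks was -0.11 and over all peaks 0.00. Peaks of 1 gene share a locus and are not independent of each other.

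**Figure D1:**
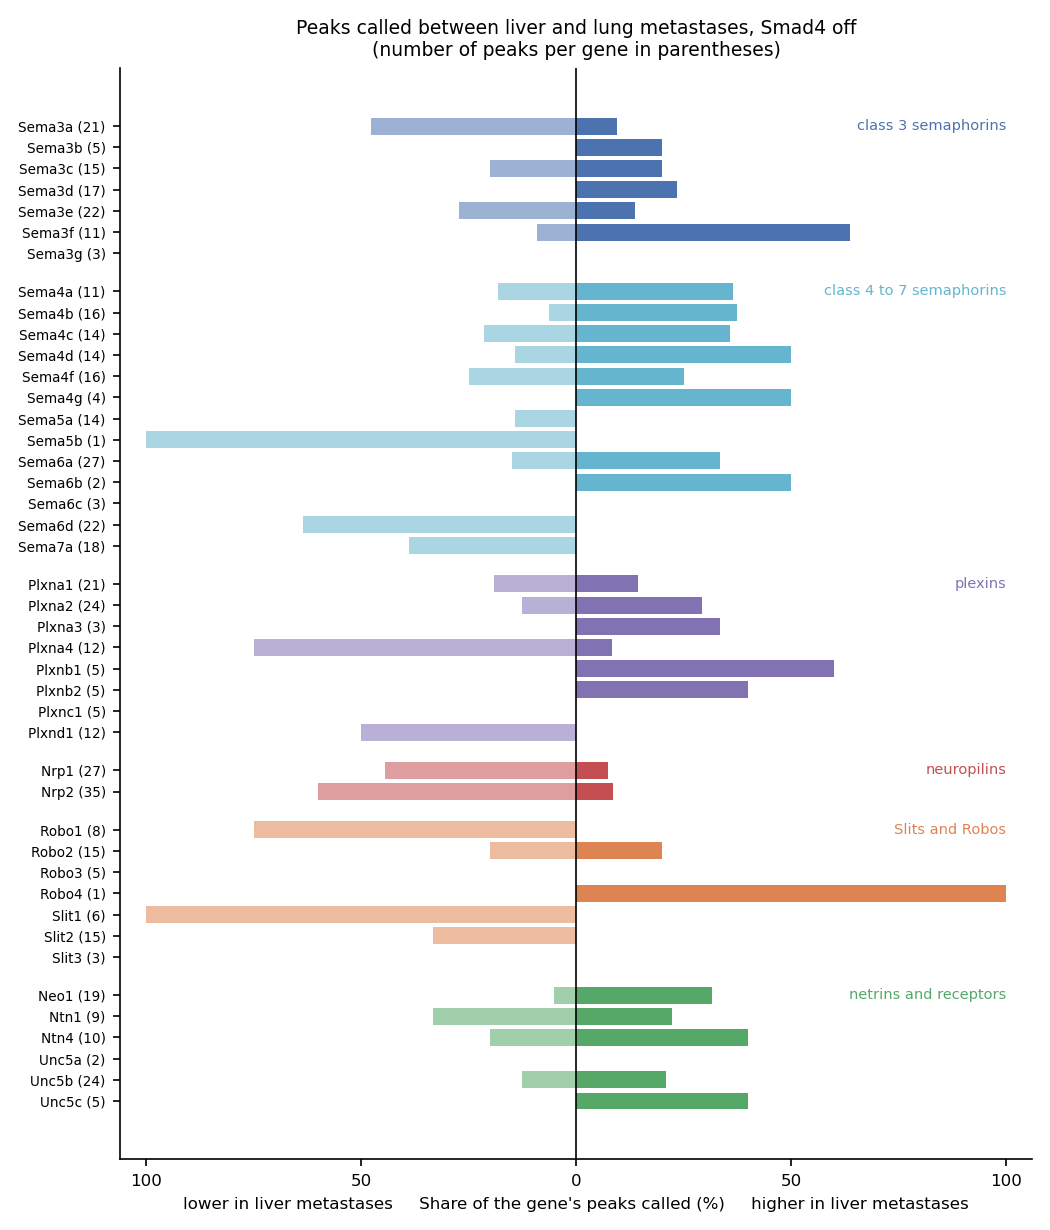
Share of each gene's peaks (x axis, percent; number of peaks in parentheses) called higher (right, dark) or lower (left, pale) in Smad4-off liver metastases than in Smad4-off lung metastases, for the 43 genes with a peak, coloured by family. All 6 Slit1 peaks and 21 of 35 Nrp2 peaks lie on the left, while 7 of 11 Sema3f peaks lie on the right.

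The sequences of 7 peaks are shown because the comparisons below turn on these peaks. Each is the central 300 bp of the peak on the plus strand of mm10, and capitals mark the AP-1 letters TGANTCA in the first 4. For Sema3f and Plxnb2 capitals mark the KLF letters GGGNGTGG on either strand. TGANTCA reads the same on both strands. The SMAD letters GTCTAGAC, named for the last peak, occur in the central 300 bp of only 0.327% of all peaks. Their absence there therefore carries no information, and shorter SMAD letters were not searched.
Nrp2, 18.3 kb downstream of the start site, in an intron, chr1:62721887-62722186, lower in liver metastases: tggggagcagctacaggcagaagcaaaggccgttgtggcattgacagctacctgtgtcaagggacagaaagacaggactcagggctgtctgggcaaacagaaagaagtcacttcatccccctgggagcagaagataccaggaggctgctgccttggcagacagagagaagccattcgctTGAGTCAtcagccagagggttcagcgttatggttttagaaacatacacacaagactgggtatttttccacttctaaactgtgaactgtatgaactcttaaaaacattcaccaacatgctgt
Sema3a, 31.5 kb upstream of the nearest start site, in an intron of a longer transcript, chr5:13365099-13365398, lower in liver metastases: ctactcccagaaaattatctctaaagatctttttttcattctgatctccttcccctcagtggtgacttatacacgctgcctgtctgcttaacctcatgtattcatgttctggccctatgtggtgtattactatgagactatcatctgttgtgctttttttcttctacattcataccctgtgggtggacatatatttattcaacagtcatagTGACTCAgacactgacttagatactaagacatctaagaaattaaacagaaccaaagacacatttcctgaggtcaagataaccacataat
Plxna4, 20.0 kb downstream, in an intron, chr6:32568034-32568333, lower in liver metastases and higher with Smad4 on: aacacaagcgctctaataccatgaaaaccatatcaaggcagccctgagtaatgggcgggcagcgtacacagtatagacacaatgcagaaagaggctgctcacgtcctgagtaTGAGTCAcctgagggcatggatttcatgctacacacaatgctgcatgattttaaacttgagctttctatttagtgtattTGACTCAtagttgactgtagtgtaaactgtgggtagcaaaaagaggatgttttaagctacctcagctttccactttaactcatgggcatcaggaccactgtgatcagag
Unc5b, 31.1 kb upstream, intergenic, chr10:60862522-60862821, higher in liver metastases although it holds the AP-1 letters: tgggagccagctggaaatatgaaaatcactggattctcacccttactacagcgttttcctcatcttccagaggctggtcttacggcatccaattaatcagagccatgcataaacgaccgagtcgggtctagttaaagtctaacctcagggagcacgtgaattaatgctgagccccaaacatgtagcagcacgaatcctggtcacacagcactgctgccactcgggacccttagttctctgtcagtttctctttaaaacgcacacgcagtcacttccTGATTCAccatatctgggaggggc
Sema3f, the start-site peak, 1.8 kb downstream, chr9:107708528-107708827, higher in liver metastases: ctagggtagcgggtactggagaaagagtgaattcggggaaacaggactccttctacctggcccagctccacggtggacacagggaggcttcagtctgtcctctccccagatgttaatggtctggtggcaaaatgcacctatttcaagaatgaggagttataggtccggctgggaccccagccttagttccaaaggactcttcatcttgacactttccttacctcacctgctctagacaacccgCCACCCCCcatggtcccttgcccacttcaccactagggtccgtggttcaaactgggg
Plxnb2, 9.05 kb downstream, partly in a coding exon, chr15:89161492-89161791, lower with Smad4 on in the pancreas: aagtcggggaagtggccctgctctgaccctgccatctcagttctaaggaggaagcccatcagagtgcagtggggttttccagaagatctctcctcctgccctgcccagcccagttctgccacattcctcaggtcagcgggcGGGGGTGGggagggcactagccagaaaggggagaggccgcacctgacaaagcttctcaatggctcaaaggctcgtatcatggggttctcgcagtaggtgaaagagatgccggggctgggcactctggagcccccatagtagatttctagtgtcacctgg
Sema3f, 14.2 kb upstream, intergenic, chr9:107724479-107724778, lower with Smad4 on, with no match to the palindromic SMAD letters GTCTAGAC and so no capitals: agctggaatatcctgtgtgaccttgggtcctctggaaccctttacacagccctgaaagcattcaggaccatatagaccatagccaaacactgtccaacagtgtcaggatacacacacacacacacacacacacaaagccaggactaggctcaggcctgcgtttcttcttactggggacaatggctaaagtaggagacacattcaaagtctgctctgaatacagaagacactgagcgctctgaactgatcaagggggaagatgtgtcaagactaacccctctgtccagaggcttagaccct

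Among single genes, Nrp2 and Nrp1 were among the 5 with the most peaks called, and they also had many peaks. Nrp2, which takes up Sema3f and some vascular growth factors, was lower in liver at 21 of 35 peaks and higher at 3, with a median log2 difference of -1.08. Without Smad4-off lung mouse 1 it was lower at 17, with a median of -0.936. Without Smad4-off liver mouse 2 the median was -0.735. The Nrp2 intronic peak at chr1:62721580-62722493 had 148 and 104 normalised reads in the 2 Smad4-off liver samples. It had 451, 356 and 385 in the lungs and 492, 490 and 494 in the pancreas. The liver values stood well below all others, and the log2 difference from the lungs was -1.66 ± 0.17 (SE, adjusted p = 1.3e-05). Nrp1, the receptor of Sema3a, was lower at 12 of 27, or at 8 without Smad4-off lung mouse 3, and higher at 2. One of the 2 was an intergenic peak 31.4 kb upstream, with 241 and 244 in the liver against 35.9, 85.9 and 63.8 in the lungs (log2 difference 2.04 ± 0.40, adjusted p = 0.00089). The promoter peaks of both genes stayed out of the calls: that of Nrp1 had 2807 and 2246 in the liver against 2258, 2596 and 2326 in the lungs, so the groups overlapped.

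Semaphorin ligands went in opposite directions by gene. Sema3a was lower in liver at 10 of 21 peaks and higher at 2. Its peak at chr5:13364709-13365788 had 12.3 and 46.0 in the liver against 471, 125 and 312 in the lungs, and 290, 204 and 287 in the pancreas. The liver samples lay below every other Smad4-off sample (log2 difference from the lungs -3.40 ± 0.56, adjusted p = 0.00025). The Sema3a sum over all its peaks in the Smad4-off lungs was 3242, 1648 and 2352 in mice 1 to 3, and the fibroblast marker sum in those mice was 512, 171 and 392. Mouse 1 was the highest of the 3 on both measures and in endothelial markers. Without it 5 Sema3a peaks were called lower in place of 10, and without liver mouse 1 there were 6. The part of fibroblasts or endothelium in this difference was not tested. Sema6d, a transmembrane semaphorin, was lower at 14 of 22 and higher at none, but without lung mouse 1 at 7 and without liver mouse 1 at 7. Its median log2 difference was -1.20, beside -1.21 for the 121 peaks of other genes within 1 Mb. Sema7a, the membrane-anchored member, was lower at 7 of 18. Its peaks summed to 5944, 3090 and 4021 in Smad4-off lung mice 1 to 3, the same order as the fibroblast markers. With Smad4 on, 1 of 18 was lower, with a median log2 difference of -0.0945. The part of fibroblasts at Sema7a was not tested.

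Other semaphorins were more open in liver metastases. Sema3f, a secreted ligand of Nrp2, was higher at 7 of 11 peaks and lower at 1. Its start-site peak at chr9:107706643-107710711 had 3468 and 3631 in liver metastases, 1642, 2213 and 1808 in lung metastases and 1876, 2069 and 1629 in the pancreas, so that the liver samples were apart from all others (log2 difference from the lungs 0.92 ± 0.12, adjusted p = 7.1e-05). Sema4d, which signals through Plxnb1, was higher at 7 of 14 and lower at 2, Sema4b at 6 of 16 and 1, and Sema6a at 9 of 27 and 4 (5 and 3 without liver mouse 1). The Sema6a start-site peak (chr18:47332988-47333698) had 62.3, 48.2 and 19.4 in pancreatic tumours, 318 and 223 in liver metastases and 62.6, 143 and 142 in lung metastases. Liver was highest without overlap, and both metastatic sites were called above the pancreas, by 2.74 ± 0.45 (adjusted p = 0.00014) and 1.46 ± 0.40 (adjusted p = 0.026), although the lowest lung sample was only just above the highest pancreatic sample. The Sema4c peak of smallest p, 25.3 kb upstream in an intron of Fam178b (chr1:36583359-36583989), had 133 and 245 in the liver against 19.3, 21.7 and 13.8 in the lungs (3.26 ± 0.35, adjusted p = 1.9e-05). An exonic Sema4f peak at chr6:82934466-82936889 went the other way, with 104 and 92.0 in the liver against 448, 454 and 743 (-2.44 ± 0.29, adjusted p = 3.6e-05).

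Plexin genes differed in direction. Plxnb1 and Plxnb2, receptors of class 4 semaphorins, were higher in liver at 3 of 5 and 2 of 5 peaks with none lower. Plxna4, a partner of neuropilins, was lower at 9 of 12 and higher at 1 (median -1.61, beside -1.24 for the 94 peaks of other genes within 1 Mb), and Plxnd1, a vascular semaphorin receptor, was lower at 6 of 12. Plxna1 and Plxna2 had calls both ways. An intronic Plxna1 peak, 8.29 kb downstream (chr6:89348333-89350522), had 178 and 180 in the liver against 674, 536 and 859 in the lungs (-1.92 ± 0.26, adjusted p = 7.5e-05). An intergenic Plxna2 peak, 9.48 kb upstream (chr1:194609558-194611122), had 406 and 351 against 52.5, 114 and 84.4 (2.23 ± 0.35, adjusted p = 0.0002). In neither did the groups overlap.

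In the Slit and Robo family, all 6 Slit1 peaks were lower in the liver than in the lungs, and all 6 were also lower than in the pancreas. The lead Slit1 peak, in an intron 73.1 kb downstream (chr19:41669713-41671151), had 59.2 and 34.8 in liver metastases, 322, 250 and 544 in lung metastases and 139, 243 and 175 in the pancreas. The 3 organs did not overlap, and the liver was below the lungs by -2.93 ± 0.38 (adjusted p = 6e-05). Within 1 Mb on either side of the Slit1 peaks, the 194 peaks assigned to other genes had a median difference of 0.06, against -1.74 for the Slit1 peaks. Robo1 was lower at 6 of 8 peaks and Slit2 at 5 of 15. Robo2 had 3 calls each way, and the strongest rise was at an intronic peak with few reads, 23.4 and 40.4 in the liver against 12.9, 9.78 and 5.17 in the lungs. The single Robo4 peak, an endothelial Robo, had 46.9 and 64.1 in the liver against 39.6, 34.8 and 21.5 in the lungs (0.80 ± 0.38, adjusted p = 0.089), a call lost with TMM factors or in edgeR, while the endothelial marker sum in the same liver samples was 425 and 525.

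Among netrins and their receptors, Neo1 was higher in liver at 6 of 19 peaks and lower at 1, and Ntn4, a netrin of basement membranes, at 4 of 10 and 2. An Unc5b peak 31.1 kb upstream (chr10:60862395-60862948) showed a log2 difference of 4.27 ± 0.60 (adjusted p = 9.4e-05), with 67.9 and 134 in the liver and at most 9.90 normalised reads in every pancreatic and lung sample. Ntn1, the founding netrin, was lower at an intronic peak 72.8 kb downstream (chr11:68313666-68314462), with 76.5 and 78.0 in the liver against 365, 221 and 298 in the lungs (-1.89 ± 0.27, adjusted p = 9.6e-05).

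Promoter peaks behaved differently from the rest of these loci. Of 48 guidance promoter peaks, 13 were higher in liver metastases and 2 lower (27.1% and 4.17%), with a median log2 difference of 0.42, whereas intronic peaks were higher at 49 and lower at 93 of 285, with a median of -0.34. Introns held 54.1% of the guidance peaks, 47.6% of the higher ones and 64.6% of the lower ones. Over all peaks of the table introns held 41.5%, 44% and 42.9%. All 14776 promoter peaks of the table showed a tilt similar to that of the guidance promoters, with 21.5% higher and 6.3% lower. The tilt rested on the scaling: after a correction for GC content 6 guidance promoters were higher and 5 lower, and with quantile normalisation the same 6 and 5. Without lung mouse 1 the counts were 7 and 3. The start-site peaks of Sema3f, Sema4d, Sema4g and Sema6a were still called higher with the GC correction (Sema3f not with quantile normalisation), whereas those of Ntn4, Plxna3, Plxnb2, Sema3b, Sema4a, Sema6b, Unc5b and Unc5c were not. Sema4g had the largest rise of those 4, with 1462 and 1211 in the liver against 356, 600 and 511 in the lungs (1.48 ± 0.21, adjusted p = 0.00012). The 2 called lower were Sema3a (236 and 177 against 769, 277 and 446; -1.16 ± 0.31, adjusted p = 0.0069) and Sema6d (13.6 and 29.3 against 58.9, 48.9 and 117; -1.75 ± 0.48, adjusted p = 0.0073).

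**Figure D2:**
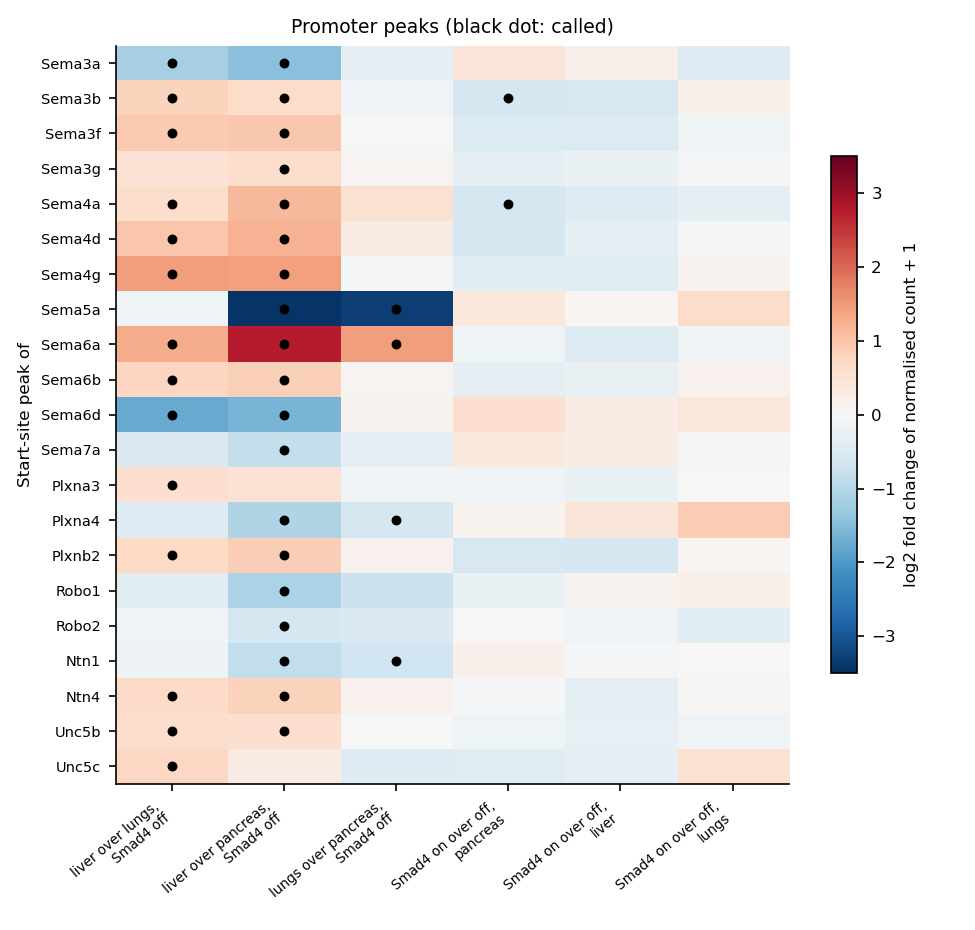
Log2 fold change (colour scale) of the 21 promoter peaks nearest a guidance gene's start site that were called in an organ comparison with Smad4 off or in a restoration comparison, with genes in rows and comparisons in columns; black dots mark calls. The liver columns hold most dots, the Sema5a row is deep blue in both comparisons with the pancreas, and only Sema3b and Sema4a carry a dot for restoration.

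Against the primary tumour, guidance peaks were more often called lower than higher. Compared with Smad4-off pancreatic tumours, liver metastases were higher at 122 peaks and lower at 217 (23.1% and 41.2% of the 527, beside 26.2% and 32.3% of all peaks), and lung metastases were higher at 23 and lower at 84 (4.36% and 15.9%, beside 6.59% and 10.7%). Without Smad4-off pancreatic mouse 3 the lung counts were 9 and 51. Both comparisons share the 3 pancreatic samples. Sema5a, a transmembrane semaphorin with thrombospondin repeats, differed at every peak. All 14 of its peaks were called lower in liver metastases, by -2.54 to -5.67 on the log2 scale (median -3.28), and 13 of 14 in lung metastases (median -2.81).

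The Sema5a start-site peak (chr15:32243876-32246860) had 664, 732 and 884 normalised reads in Smad4-off pancreatic tumours. It had 105 and 44.6 in liver metastases and 49.7, 101 and 87.0 in lung metastases. The pancreatic samples did not overlap with either site (log2 differences -3.44 ± 0.66, adjusted p = 0.00045, and -3.30 ± 0.59, adjusted p = 0.0022), while liver and lungs overlapped each other. In the Smad4-on mice, which are other animals, 14 of 14 peaks were again lower in the liver than in the pancreas and 11 of 14 lower in the lungs. Fibroblast marker promoters moved with this locus. In the 3 Smad4-on pancreatic tumours the Sema5a peaks summed to 3689, 3216 and 1087 and the fibroblast markers to 1521, 1300 and 594, and in the 2 Smad4-on liver samples to 515 and 73.1 beside 261 and 105. Both measures ranked the mice alike within these groups and within the Smad4-off pancreatic and liver groups. They did not in the lungs, where Sema5a summed to 182, 276 and 252 beside 512, 171 and 392 with Smad4 off and to 323, 456 and 496 beside 198, 211 and 184 with Smad4 on. The part of fibroblasts in the Sema5a difference was not tested. In a bulk sample, fewer cells of a type and less signal per cell cannot be told apart. The 93 peaks of other genes within 1 Mb had a median of -1.26 between liver and pancreas and -0.62 between lungs and pancreas. Neighbours were examined for 6 genes, Sema5a, Plxna4, Slit1, Sema6d, Nrp2 and Sema6a, which were picked after their values were seen. For Nrp2 and Sema6a the neighbours had medians of -0.14 and -0.16 between liver and lungs, beside -1.08 and 0.54 for the genes.

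Other genes shared the pattern in part. The 3 Slit3 peaks were lower in both metastatic sites, and the one nearest the gene had 25.6, 32.2 and 37.0 in the pancreas against 3.70 and 6.97 in the liver and 17.5, 9.78 and 6.03 in the lungs. At the Ntn1 start-site peak, the values were 360, 443 and 518 for pancreatic tumours, 247 and 228 for liver metastases and 258, 246 and 303 for lung metastases (-0.87 ± 0.25, adjusted p = 0.007, and -0.70 ± 0.22, adjusted p = 0.05). The pancreatic samples were above all metastatic ones at both genes with Smad4 off. The lung call at this Slit3 peak was lost in 4 fits with 1 sample left out and that at the Ntn1 start site in 3, with adjusted p up to 0.185 and 0.205. Fibroblast markers moved with both genes in the pancreas. With Smad4 on, the Slit3 peaks summed to 499, 473 and 162 and the Ntn1 peaks to 1998, 1440 and 1028, beside 1521, 1300 and 594 for the markers. With Smad4 off the sums were 207.5, 214 and 287 for Slit3 and 1130, 1344 and 1695 for Ntn1, beside 797, 932 and 1281. Both genes ranked the mice as the markers did, and the part of fibroblasts was not tested. Slit2 was lower in the liver than in the pancreas at 10 of 15 peaks (median -2.22). Its peaks summed to 2704, 2202 and 2119 in Smad4-on pancreatic tumours, the same order as the markers. With Smad4 off they summed to 1742, 1579 and 2237, not the same order, and the part of fibroblasts was not tested. Sema6d was also lower in the liver than in the pancreas, at 17 of 22 (median -1.99, beside -1.90 for its neighbours within 1 Mb). Plxnb2 was the opposite case, with all 5 peaks higher in the liver than in the pancreas and 2 of 5 higher in the lungs, and Sema6a was higher in the liver at 16 of 27.

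Organ differences were called in the Smad4-on mice as well. Liver metastases were higher than lung metastases at 72 guidance peaks and lower at 121 (beside 17.6% and 18.2% of all peaks), higher than the pancreas at 135 and lower at 205 (27.1% and 32.2%), and lung metastases were higher than the pancreas at 74 and lower at 108 (12.8% and 14.9%). After GC correction the last pair was 100 and 95, beside 18.1% and 12.7% of all peaks. Single mice weighed on these counts, which are given without the share of all peaks in the same fits. Without Smad4-on liver mouse 2, 26 peaks were higher and 38 lower than in the lungs, and 211 in all differed from the pancreas, and without Smad4-on pancreatic mouse 1 the lungs differed from the pancreas at 121 in all. The following shares were computed with all samples. Of the 144 peaks lower in liver than lungs with Smad4 off, 95 (66%) were called lower with Smad4 on, which was 78.5% of the Smad4-on list. Of the 103 higher peaks 60 (58.3%) were called again, 83.3% of the Smad4-on list, and no peak was called in opposite directions. Over all peaks the shares of the Smad4-off lists called again were 56.9% for lower and 67.5% for higher peaks. The same peaks made up 83.8% and 87.9% of the Smad4-on lists over all peaks, above the guidance shares.

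Restoration of Smad4 changed few guidance loci within an organ. In the pancreas no peak was called higher and 14 were lower, at 10 genes (2.66%, beside 0.364% and 3.06% of all peaks). In the liver 2 were higher and 1 lower (beside 0.462% and 0.0886%). In the lungs no guidance peak was called by limma or edgeR (beside 0.00146% higher and 0.0022% lower), with 51 peaks at an unadjusted p under 0.05 (7.11% of all peaks passed it). Averaged over organs 18 were higher and 14 lower (beside 3.61% and 3.0%). Lung samples correlated by replicate number, and with that number as a block in the lungs the pancreas had 7 higher and 26 lower (beside 1.63% and 4.88% of all peaks), the liver 5 and 4 (1.19% and 0.274%), and the lungs still none. The pancreatic count depended on single mice. Without pancreatic Smad4-off mouse 2 it was 3, and without Smad4-off lung mouse 1, whose spread enters the shared variance, 29. The shares of all peaks in those fits are not given.

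Sema3f had the most guidance peaks called lower with Smad4 on, both in the pancreas and averaged over organs. Of its 11 peaks, 3 were called lower in pancreatic tumours, 1 in liver metastases and 4 in the average. The pancreatic count was 1 without Smad4-off mouse 2 and 1 without Smad4-off mouse 3, while the averaged count was 3 to 5 with any 1 sample left out. The ductal marker sum was also lower in Smad4-on pancreatic tumours, at 17276 to 20994 against 23626 to 25875. In the liver it was 39704 and 49417 with Smad4 on against 53081 and 52701 with Smad4 off, while in the lungs the groups overlapped. The part of ductal markers in the Sema3f change was not tested. The peak 14.2 kb upstream (chr9:107723193-107726063) had 390, 380 and 359 with Smad4 off and 153, 167 and 126 with Smad4 on in the pancreas. In the liver it had 817 and 553 against 220 and 302, and in the lungs 230, 367 and 302 against 185, 223 and 189. Smad4-on samples were below all Smad4-off samples of their organ in each organ. The log2 changes were -1.34 ± 0.20 (adjusted p = 0.01), -1.38 ± 0.25 (adjusted p = 0.045) and -0.56 ± 0.20 (adjusted p = 0.55), and their average -1.10 ± 0.13 (adjusted p = 0.001). The liver call was lost in a fit of the liver groups alone and without liver mouse 1 of either group. A second upstream peak, 25.7 kb away (chr9:107735719-107736608), had 263 and 256 against 122 and 136 in the liver, with an average change of -0.79 ± 0.14 (adjusted p = 0.0077). The Sema3f start-site peak had 1876, 2069 and 1629 against 1240, 1271 and 1501 in the pancreas, with no overlap but a change of -0.47 ± 0.11, below the size needed for a call.

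The Plxnb2 intronic peak 9.05 kb downstream (chr15:89161162-89162120) fell in the pancreas from 219, 246 and 201 to 80.0, 79.2 and 80.5 (-1.46 ± 0.21, adjusted p = 0.0096). In the liver it had 792 and 798 with Smad4 off and 522 and 667 with Smad4 on (-0.43 ± 0.26, adjusted p = 0.54). A Sema4f peak 47.1 kb downstream (chr6:82891299-82894058) fell in the pancreas from 601, 790 and 706 to 336, 296 and 241 (-1.27 ± 0.22, adjusted p = 0.015). Smad4-on pancreatic tumours were the lowest of all groups at both peaks. The start-site peaks of Sema3b (-0.61 ± 0.16, adjusted p = 0.066) and Sema4a (-0.62 ± 0.18, adjusted p = 0.092) were also called lower in the pancreas, and both calls were lost after GC correction. Counting fits with 1 sample left out, the Sema3b call was lost in 8 alternative fits and the Sema4a call in 13.

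Within single organs, 2 guidance peaks were called higher with Smad4 on, both in the liver. With Smad4 off both were called lower there than in the lungs. The 2 comparisons share the Smad4-off liver samples and are not independent, since low values in those samples would produce both. The exonic Sema4f peak went from 104 and 92.0 to 408 and 212 (1.58 ± 0.32, adjusted p = 0.065), and the intronic Nrp2 peak from 148 and 104 to 236 and 217 (0.86 ± 0.18, adjusted p = 0.071). The samples did not overlap in either case. Both calls were lost after GC correction, in a fit of the liver groups alone and without Smad4-off pancreatic mouse 1. Counting fits with 1 sample left out, the Nrp2 call was lost in 14 alternative fits and the Sema4f call in 6. In the lungs the Sema4f peak had 448, 454 and 743 with Smad4 off and 892, 1437 and 1222 with Smad4 on, which do not overlap either, but the adjusted p was 0.3.

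**Figure D3:**
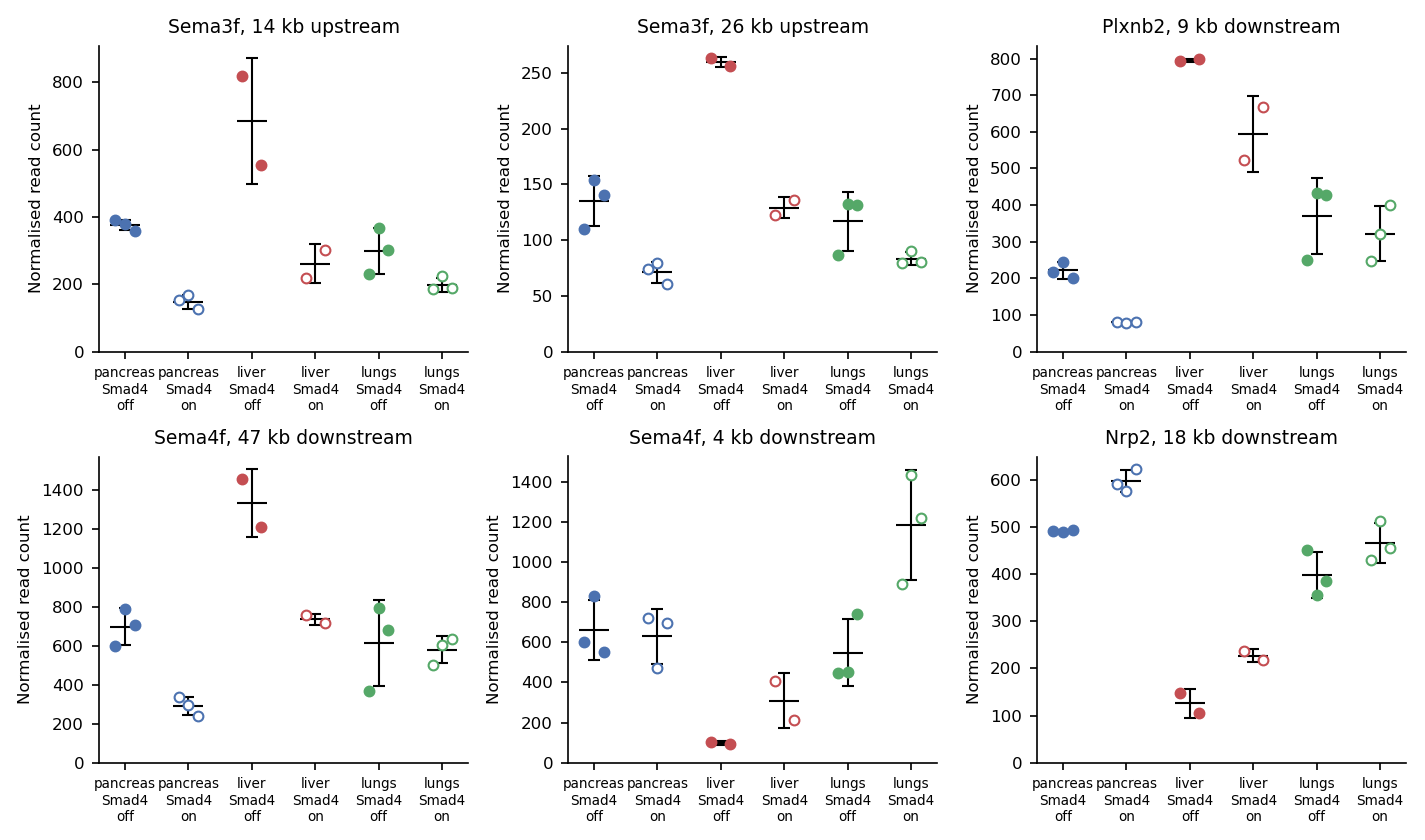
Normalised read count (y axis) of 6 peaks named by the restoration comparisons, in the 6 groups; points are mice (filled Smad4 off, open Smad4 on), with the mean and SD in black. The Smad4-on pancreatic points of Sema3f, Plxnb2 and the distal Sema4f peak lie below the Smad4-off ones, while the liver points of the proximal Sema4f and Nrp2 peaks lie above.

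Plxna4 had the most guidance peaks called higher with Smad4 on when organs were averaged. Averaged over organs, 8 of its 12 peaks were called higher, none lower, and all 12 estimates were positive (0.37 to 1.85, median 1.01). No peak was called in a single organ, where the median log2 changes were 0.545 for pancreatic tumours, 1.04 for liver metastases and 1.58 for lung metastases. The 12 peaks summed to 676.6, 545.5 and 878 in Smad4-off lungs and to 1886, 1836 and 1304 in Smad4-on lungs. In the liver they summed to 326 and 412 against 639 and 708. Both organs showed no overlap. In the pancreas the sums were 908, 1171 and 759 against 963, 987 and 1776, which overlapped, with mouse 3 far above the others. The intronic peak 20.0 kb downstream (chr6:32567851-32568515) rose by 1.495 ± 0.23 on average (adjusted p = 0.0042) and the one 36.8 kb downstream (chr6:32550633-32552209) by 1.49 ± 0.28 (adjusted p = 0.0098). The start-site peak had 180, 199 and 292 in Smad4-off lungs and 369, 466 and 384 in Smad4-on lungs, without overlap, and its average change of 0.48 ± 0.12 was below the size needed for a call. The 94 peaks of other genes within 1 Mb had a median average change of 0.25. Leaving out any 1 sample, or changing the scaling, left 7 to 10 Plxna4 peaks called. Pancreatic Smad4-on mouse 3, the highest at Plxna4, was the lowest of its group at Sema5a and in fibroblast markers.

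**Figure D4:**
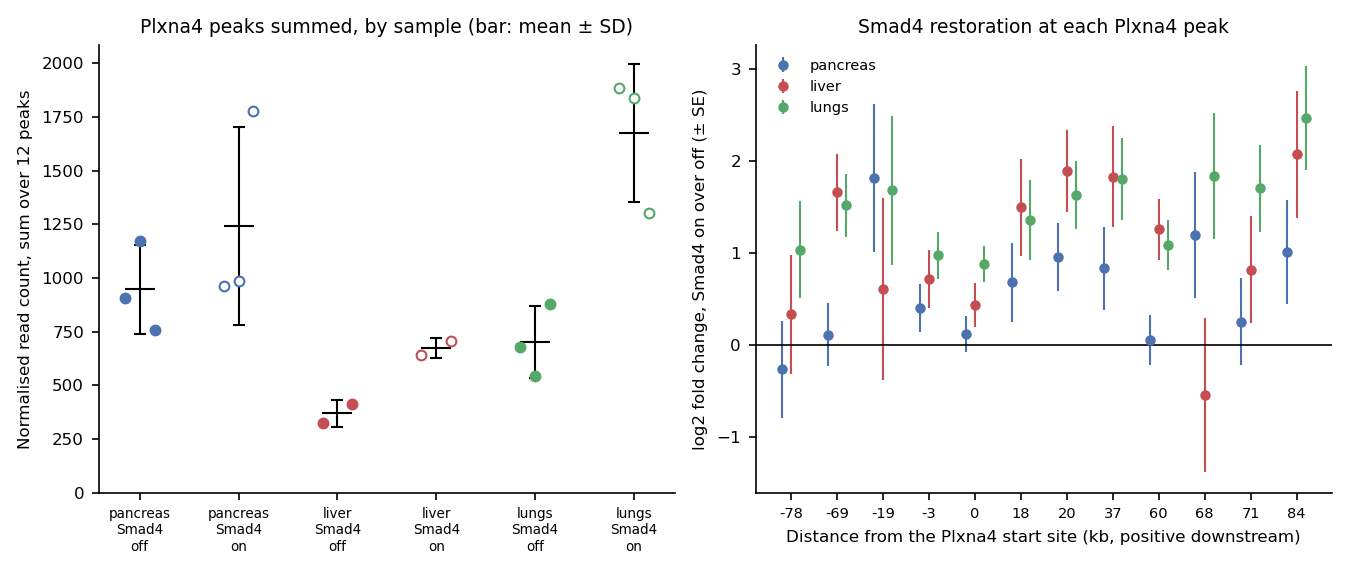
Left: normalised reads summed over the 12 Plxna4 peaks (y axis) by mouse in each group, filled for Smad4 off and open for Smad4 on, with mean and SD. Right: log2 fold change with its SE (y axis) for Smad4 on over off at each peak, placed by distance from the start site (x axis, kb) and coloured by organ; all 12 lung points and 11 of 12 liver points lie above 0.

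Whether restoration acted differently between organs was tested by interaction terms. No guidance peak was called for liver minus lungs, liver minus pancreas or lungs minus pancreas by limma or edgeR, and 0.0% of all peaks were. At an unadjusted p under 0.05 there were 28, 24 and 75 guidance peaks, beside 5.25%, 3.95% and 11% of all peaks. With the lung replicate block, 18 were called for lungs minus pancreas, 15 of them with a higher response in the lungs, beside 1.27% higher and 0.475% lower over all peaks.

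The letters under the peaks differed by direction. The AP-1 letters TGANTCA were present in the central 300 bp of 52.1% of the 144 guidance peaks lower in liver than lungs and of 13.6% of the 103 higher ones, beside 31.7% of all 527. The KLF letters GGGNGTGG were present in 9.03% and 21.4%. In all peaks of the table the shares by direction were 53.4% and 20% for AP-1 and 8.35% and 14.4% for KLF. Regardless of direction they were 34.1% and 11%. For the AP-1 and KLF letters the guidance peaks thus differed in the same direction as the table. Among the peaks of smallest p in each of the 6 families, 1 in each direction, AP-1 letters occurred in 3 of those lower and in 3 of those higher. RUNX letters TGTGGT were present in 26.4% and 21.4%, beside 33.2% and 22% of all lower and higher peaks. FOX letters TGTTTAC were present in 9.03% and 7.77%, beside 6.39% and 7.2%. HNF4 letters CAAAGTCCA were present in 1.39% and 0.971%, beside 0.546% and 2.2%. For FOX and HNF4 the order in guidance peaks was the reverse of that in all peaks, and the HNF4 shares stand for few peaks.

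Other genes of the pathway gave a contrast. Peaks of 34 effectors and cofactors, such as the collapsin response mediators, were higher in Smad4-off liver than lungs at 79 and lower at 111 of 408. Those shares (19.4% and 27.2%) were close to those of the guidance genes themselves. Peaks of 21 Eph receptors and ephrins, a guidance system not in the list, were higher at 56 and lower at 21 of 159 (35.2% and 13.2%, beside 22.9% and 26.8% of all peaks). Among them, 15 of 16 peaks of Ephb2, a receptor of B-type ephrins, were higher, with a median log2 difference of 2.04. In the restoration effect averaged over organs, effectors had 21 peaks higher and 7 lower (5.15% and 1.72%), and Eph and ephrin genes 3 and 2 (1.89% and 1.26%). Over all peaks 3.61% were called higher and 3.0% lower.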

How the data were processed

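ATAC-seq with Tn5 was done on 60000 sorted mKate2-positive cells per mouse, 16 mice in 6 groups. The deposited table holds signal per peak, read counts that the authors normalised with DESeq2. They trimmed reads (Trim Galore, cutadapt), aligned to mm10 using Bowtie2, used MACS2 for peaks (p of at most 0.001) and removed blacklisted regions. They then merged peaks within 500 bp and counted with featureCounts. Duplicate removal, the Tn5 shift and any filter on the table are not given in the sources used here. Whole reads were recovered for 100% of values (tolerance 0.01 reads). A mitochondrial row was left out.

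Peaks were assigned to GENCODE vM21 start sites. Log2(value + 1) was fitted with limma 3.58.1 (trend, robust, 1 mean per group, all groups), so fold changes of low peaks are understated. Calls needed a log2 change of 0.58 and a Benjamini-Hochberg adjusted p of at most 0.1 over 136630 peaks. edgeR 4.0.16 on recovered reads, TMM factors, GC correction, quantile normalisation, a pseudocount of 10, a mean filter of 20, a distance of 25 kb, fits of 2 groups and leaving out each sample were alternatives. The fit was also run on simulated counts with the same spread in all groups, so that run did not test the shared variance. Same-numbered lung samples deviated together (correlations 0.491, 0.124 and 0.214), on statistical grounds only, whereas pancreas (-0.33, 0.0271 and -0.33) and liver (0.0834 in both) did not.

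Members and gene lists were chosen with earlier results of these data known. Named peaks were, per family and direction, the called peak of smallest p between Smad4-off liver and lungs whose samples did not overlap, the peaks nearest to start sites called in a Smad4-off organ or restoration comparison, and up to 3 called peaks per direction of smallest p in each restoration comparison, with the 5 genes with most calls. Members of a locus are not replicates. One allele that all groups share is not reported here.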

Additional observations from a re-analysis of the deposited data

How the results depend on the processing

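Under the alternative settings and with single samples left out, no value at the 42 named peaks (70 comparisons) reversed, and 72 and 79 values respectively lost their call. Counts of called guidance peaks below are both directions together. Those at the 25 kb limit and with single samples left out are given without the share of all peaks. They do not show a change particular to guidance peaks. With a limit of 25 kb, which leaves fewer peaks by construction, they were 112 between liver and lungs, 166 between liver and pancreas and 46 between lungs and pancreas with Smad4 off, 88, 165 and 85 with Smad4 on, 16 for average restoration and 7 for restoration in the pancreas. Restoration in the pancreas, 14 peaks, gave 8 with GC correction and 31 with quantile normalisation (1.93% and 6.06% of all peaks, beside 3.42% in the fit as reported), and in the liver, 3 peaks, 1 with GC correction, 5 with TMM factors and 0 with the liver groups alone. With the replicate block in the lungs, the pancreas gave 33 (30 with GC correction as well), the liver 9, and lungs minus pancreas 18 (10 with GC correction, and 2 with a block in every organ). The cause was not tested.

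With each sample left out in turn, the counts ranged from 181 to 276 (liver against lungs), 282 to 345 (liver against pancreas) and 60 to 118 (lungs against pancreas) with Smad4 off, and 64 to 208, 211 to 348 and 121 to 195 with Smad4 on. Restoration ranged from 20 to 59 averaged, 3 to 29 in the pancreas, 0 to 12 in the liver and 0 to 0 in the lungs, and lungs minus pancreas from 0 to 25. Smad4-on liver mouse 2 set both lowest Smad4-on liver counts. Without Smad4-off lung mouse 1 the averaged count was 59, and without Smad4-off liver mouse 1 it was 20. A liver group left with 1 sample was assumed to vary like the others. Low read counts limit the precision at weak peaks.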
